A study of Homo sapiens with 16 samples.

Results

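The genes described here make cholesterol and fatty acids. They were listed by name and looked up by symbol in the deposited table, and 32 of the 33 listed genes were found among its 11282 genes (CYP51A1 was not analysed here). All 32 passed the filter on low values and were tested. They comprise 7 genes of the mevalonate steps (ACAT2, HMGCS1, MVK, PMVK, MVD, IDI1 and FDPS), 10 of the sterol steps (FDFT1, SQLE, LSS, TM7SF2, MSMO1, NSDHL, HSD17B7, EBP, SC5D and DHCR7), 5 regulators (SREBF1, SREBF2, SCAP and INSIG1, with the sterol carrier STARD4 placed beside them) and 10 fatty acid enzymes (ACLY, ACACA, FASN, SCD, ELOVL5, ELOVL6, FADS1, FADS2, ACSL3 and ACSS2).

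Cells build cholesterol from acetyl-CoA. The mevalonate steps make the isoprenoid precursor, squalene is formed and closed into lanosterol, and a chain of demethylases, reductases and isomerases turns lanosterol into cholesterol. The SREBP factors, encoded by SREBF1 and SREBF2, switch on most of these genes when sterols run low. SCAP carries the SREBP precursors out of the endoplasmic reticulum, and INSIG1 holds them there when sterols are plentiful. SREBP-2 is known mainly for cholesterol genes and the short SREBP-1c form mainly for fatty acid genes.

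RNA was measured in HCC70, an established human basal-like breast cancer line, after constructs for short hairpin RNAs (shRNAs) had been introduced by infection, to learn how regulators of the cell population shape its expression profile. The 4 targets were RBPJ, the DNA-binding factor of Notch signalling, KLF5, a zinc-finger factor of epithelia, NFIB, a nuclear factor I family member, and FOXA1, a forkhead pioneer factor, each with 2 libraries that carry different hairpins. The controls were plko, a construct named for the vector backbone (2 libraries), and hairpins named for red fluorescent protein, beta-galactosidase and luciferase (shRFP, shLACZ and shLUC), 2 libraries each and 6 in all, called the hairpin controls below. Libraries of a construct are called 1 and 2, as in the labels, which do not say whether they came from separate cultures, and every library is of one line in one medium.

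Values are the deposited normalized signal, in which 3′ reads were scaled by library and not by gene length. Library totals lay between 375713 (plko 1) and 3090666 reads (RBPJ 1). The 4 epithelial markers EPCAM, CDH1, KRT8 and KRT18 were read in all 16 libraries, and ESR1 and PGR, receptors that a triple-negative line lacks, summed to 2.21 to 14.1. KRT8 stood at 13.5 and 12.8 in KLF5 and 22.1 and 14.3 in plko libraries, against 177 to 256 in the hairpin controls. In this marker these 4 libraries stood apart from the hairpin controls. All 4 epithelial markers summed to 876.5 to 1151.6 in KLF5, 811.9 to 984.6 in plko and 994.0 to 1383.1 in hairpin control libraries. The 7 listed basal-like markers summed to 4490.0 to 5027.5 in KLF5 and 2982.8 to 4545.9 in plko libraries. In RBPJ libraries they summed to 3642.9 to 8257.5, and in hairpin control libraries to 4628.0 to 6794.5. Fibroblast markers summed to 20.9 to 25.1 in RBPJ, 35.5 to 43.2 in KLF5, 38.3 to 40.1 in NFIB, 12.5 to 22.5 in FOXA1 and 8.38 to 25.8 in hairpin control libraries over the 4 of 7 in the table. PTPRC, which defines leukocytes, was at 0 in 6 of 16 libraries, while CD68 and CD14 were at 0 in 0 of 16. These 3 of 4 listed leukocyte markers summed to 34.2 to 97.5 over all libraries. The part of these differences in the results below was not tested.

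Promoter windows are shown for DHCR7 and SCD, the sterol gene and the fatty acid gene with the smallest p with RBPJ hairpins, and for SREBF2, which was lower with KLF5 hairpins and holds the only sterol element found among the 28 windows read. Each window runs from 250 bases before to 50 after the start in RefSeq (GRCh38.p14), 5′ to 3′. Capitals mark the CCAAT box (CCAAT or ATTGG on the reverse strand), which binds NF-Y, a partner of SREBP at sterol promoters, and the sterol element TCACNCCAC.
DHCR7 (chr11:71448344-71448643, minus strand): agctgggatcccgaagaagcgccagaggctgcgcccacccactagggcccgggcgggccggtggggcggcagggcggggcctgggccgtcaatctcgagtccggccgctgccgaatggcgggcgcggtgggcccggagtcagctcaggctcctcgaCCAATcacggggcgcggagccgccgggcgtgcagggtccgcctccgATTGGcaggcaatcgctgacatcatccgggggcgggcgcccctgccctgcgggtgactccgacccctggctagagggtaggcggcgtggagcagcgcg
SCD (chr10:100346983-100347282, plus strand): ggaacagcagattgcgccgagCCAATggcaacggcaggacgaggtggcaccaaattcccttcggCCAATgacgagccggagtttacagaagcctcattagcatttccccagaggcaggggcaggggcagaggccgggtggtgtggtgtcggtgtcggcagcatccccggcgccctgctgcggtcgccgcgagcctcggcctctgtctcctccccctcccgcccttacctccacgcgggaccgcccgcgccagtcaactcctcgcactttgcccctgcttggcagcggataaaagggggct
SREBF2 (chr22:41832855-41833154, plus strand): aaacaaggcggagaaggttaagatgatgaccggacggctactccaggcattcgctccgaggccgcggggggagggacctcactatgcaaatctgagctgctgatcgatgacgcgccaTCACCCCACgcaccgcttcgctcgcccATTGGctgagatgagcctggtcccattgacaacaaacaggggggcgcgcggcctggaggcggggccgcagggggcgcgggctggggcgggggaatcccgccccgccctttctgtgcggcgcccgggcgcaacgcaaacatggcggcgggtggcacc
Counted from the start, the CCAAT boxes of DHCR7 begin at positions -94 and -48, those of SCD at -229 and -186, and that of SREBF2 at -106, with its sterol element at -133.

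Of the 32 genes, 28 had a window, while ACAT2, FDFT1, SQLE and FASN had none. Where a gene had several windows the first listed was read. A CCAAT box lay in 12 of 14 windows of the mevalonate and sterol steps (85.7%), 5 of 9 of the fatty acid enzymes (55.6%) and 3 of 5 of the regulators, against 37.2% of the 9274 genes of the table with a window. At least 2 boxes lay in 9 of the 14 mevalonate and sterol windows (64.3%), against 14% of those genes. The element TCACNCCAC on either strand was found in 1 of the 28 windows, and in 1.1% of those genes. TGGGAA, the core bound by RBPJ, lay on either strand in 4 of the 28 windows (14.3%, those of MVK, FDPS, ELOVL5 and ACSS2), against 21.9% of those genes. The GC box GGGCGG lay on either strand in 25 of the 28 windows (89.3%), against 70.6% of those genes, and the E-box CACGTG in 5 (17.9%), against 10.3%. The sites in capitals do not overlap each other, and a match describes letters, not binding.

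The targeted transcripts were read first. RBPJ stood at 43.3 in RBPJ 1 and 8.53 in RBPJ 2, against 43.1, 47.7 and 54.9 (lowest, median, highest) in the hairpin controls. That library lay inside the range of the hairpin controls, so it is called the library labelled RBPJ 1 below. The KLF5 libraries had RBPJ at 41.9 and 40.8. KLF5 stood at 62.6 and 37.3 in the KLF5 libraries, against 88.7 to 112 in the hairpin controls. NFIB stood at 238 and 42.2 in the NFIB libraries, against 308.5 to 366, and FOXA1 at 24.4 and 58.6 in the FOXA1 libraries, against 67.6 to 160.1, in the hairpin controls. All of these 6 libraries lay below all of the hairpin controls.

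With RBPJ hairpins, 31 of the 32 genes had a fitted log2 fold change below 0, with a median of -0.82, against 0.03 over all genes tested. The shift was larger in the mevalonate steps (median -1.04, 7 of 7 below 0) and the sterol steps (median -0.93, 10 of 10 below 0) than in the regulators (median -0.57) and the fatty acid enzymes (median -0.42, 9 of 10 below 0). One gene passed the test, DHCR7, by limma at an adjusted p under 0.05, where 3 of 10826 genes passed, 0.0277% lower and 0% higher. At an unadjusted p under 0.05, 19 of the 32 were lower and 0 higher, against 3.92% of all genes lower and 2.1% higher. Both libraries lay below all 6 hairpin controls for 11 of the 32 genes, against 4.03% of all genes, and 10 of these 11 were mevalonate or sterol genes. Both lay above all 6 for 0 of the 32, against 4.19% of all genes. In bulk RNA, fewer cells of a type and less RNA per cell cannot be told apart.

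**Figure D1:**
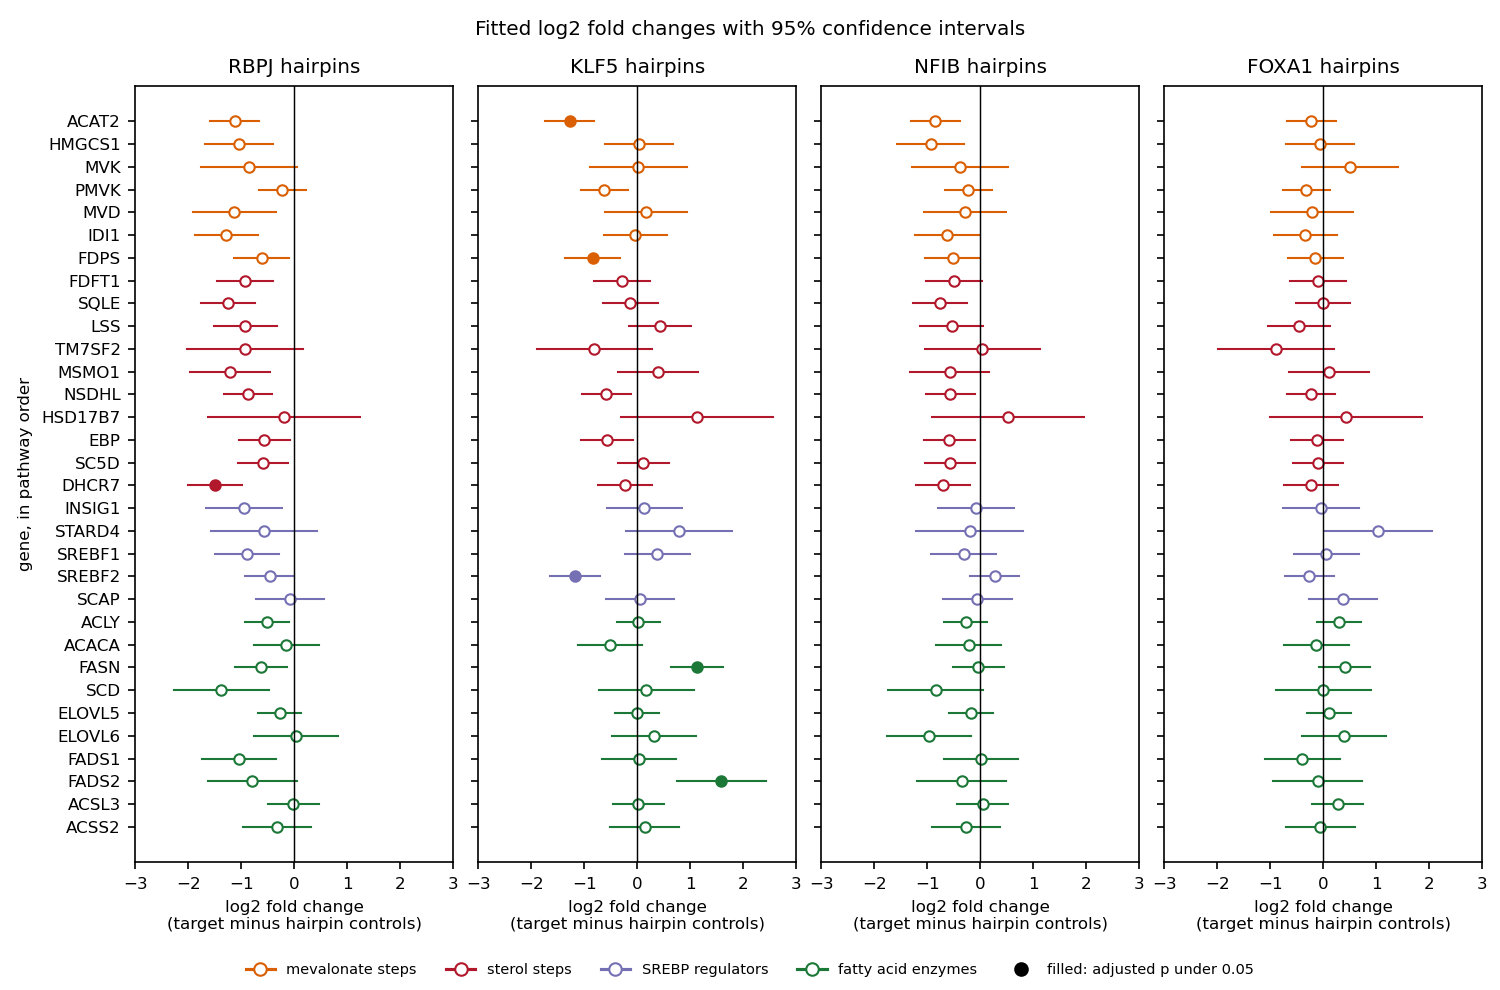
Fitted log2 fold changes (points) with 95% confidence intervals (lines) of the 32 genes for each target minus the 6 hairpin controls, on the log2(value + 1) scale, in pathway order and coloured by role. Filled points had a limma adjusted p under 0.05. With RBPJ hairpins 31 points lie left of 0 and DHCR7 is filled, and with KLF5 hairpins 5 points are filled, 3 to the left and 2 to the right.

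DHCR7 (ENSG00000172893), which makes cholesterol from 7-dehydrocholesterol, stood at 69.6 in the library labelled RBPJ 1 and 31.3 in RBPJ 2, against 107, 139 and 149.7 (lowest, median, highest) in the hairpin controls. Both were below every control library, plko at 110.3 and 111.5 included. It fell with a log2 fold change of -1.50 (SE 0.25, limma adjusted p = 0.0135), the second smallest p of all genes tested. SQLE, squalene epoxidase, stood at 76.8 and 39.8 in the RBPJ libraries, against 95.7, 147 and 171 in the hairpin controls, a log2 difference of -1.25 (SE 0.25, limma adjusted p = 0.0609). Its groups did not overlap, and it missed the threshold. NSDHL, a decarboxylase that removes methyl groups from sterols, stood at 53.0 and 65.0 in the RBPJ libraries, against 90, 106 and 132 in the hairpin controls (log2 -0.88, limma adjusted p = 0.202). Both RBPJ libraries lay below the hairpin controls, the one labelled RBPJ 1 being the lower.

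Among the mevalonate steps, ACAT2, the thiolase that joins acetyl-CoA units, was as low in either RBPJ library. It stood at 79.1 and 72.5 in the RBPJ libraries, against 141, 167 and 198 in the hairpin controls (log2 -1.13, SE 0.22, limma adjusted p = 0.0609). IDI1, the isomerase of the isoprenoid unit, stood at 300.4 and 95.3 in the RBPJ libraries, against 390.0, 421 and 434 in the hairpin controls (log2 -1.28, limma adjusted p = 0.126). Both RBPJ libraries were below the hairpin controls, and RBPJ 2 was the lowest of all 16 libraries. HMGCS1, the HMG-CoA synthase, stood at 49.7 and 19.9 in the RBPJ libraries, against 46.5, 60.5 and 91.8 in the hairpin controls (log2 -1.04, limma adjusted p = 0.372), and its groups overlapped.

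In the library labelled RBPJ 1, 0 of 5 regulators and 2 of 10 fatty acid enzymes (ACLY and ELOVL6) lay below all 6 hairpin controls, against 14.7% of all genes. One enzyme, ACSS2, lay above them. In RBPJ 2, 3 of 5 regulators and 7 of 10 enzymes lay below all 6, against 17.9% of all genes, and 1 enzyme, ELOVL6, lay above them. The share of all genes above them was not counted for single libraries. INSIG1 stood at 91.0 and 21.3 in the RBPJ libraries, against 73.5, 82.8 and 107 in the hairpin controls (log2 -0.95, limma adjusted p = 0.627). SREBF1 stood at 42 and 18.0 in the RBPJ libraries, against 37.5, 54.1 and 70.4 in the hairpin controls (log2 -0.89, limma adjusted p = 0.489). SREBF2 stood at 190.5 and 101.5 in the RBPJ libraries, against 173.5, 184 and 228 in the hairpin controls (log2 -0.46, limma adjusted p = 0.827).

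SCD, the desaturase that makes oleate, stood at 158 and 25.1 in the RBPJ libraries, against 140.3, 158 and 206 in the hairpin controls (log2 -1.38, limma adjusted p = 0.41). FADS1, a desaturase of polyunsaturated fatty acids, stood at 93.7 and 20.9 in the RBPJ libraries, against 61.2, 99.3 and 121 in the hairpin controls (log2 -1.04, limma adjusted p = 0.464). FASN, the fatty acid synthase, stood at 252 and 104 in the RBPJ libraries, against 194, 251 and 301 in the hairpin controls (log2 -0.63, limma adjusted p = 0.646). In each of these the library labelled RBPJ 1 overlapped the hairpin controls and RBPJ 2 lay below all of them. The elongase ELOVL6, with 7.71 and 16.1 in the RBPJ libraries, against 9.86 to 12.6 in the hairpin controls, was the gene of the 32 with a fold change above 0 (log2 0.03).

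**Figure D2:**
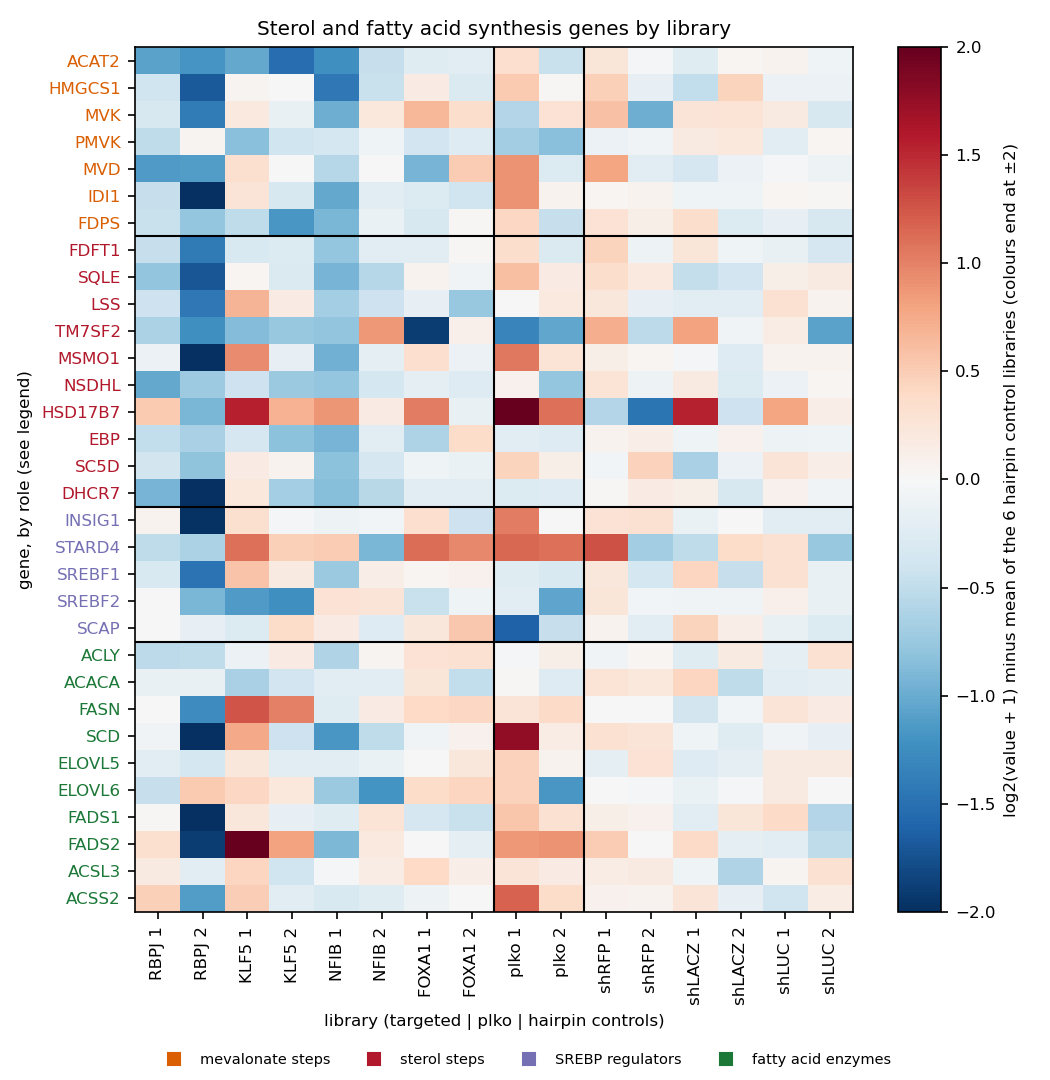
Each cell is log2(value + 1) of a gene in a library minus the mean of the 6 hairpin controls, with genes in rows by role and libraries in columns, targeted libraries left, plko and the hairpin controls right. Blue is lower and red higher, and colours end at 2 on either side. RBPJ 2 and NFIB 1 show blue in most of the mevalonate and sterol rows, except PMVK in RBPJ 2 (log2 0.06) and HSD17B7 in NFIB 1 (log2 0.88), and plko 1 shows red in several rows.

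The 2 RBPJ libraries differed in size of shift. RBPJ 2, which had the lower RBPJ transcript, was below all 6 hairpin controls for 25 of the 32 genes, against 17.9% of all genes. It held the lowest value of all 16 libraries for 16 of the 32, where any other library did for 3 at most. The share of all genes lowest in RBPJ 2 was not counted. The library labelled RBPJ 1 was below all 6 for 13 of the 32, against 14.7% of all genes, and 11 of these 13 were mevalonate or sterol genes. Its median log2 difference from the hairpin controls was -0.46 in the mevalonate steps and -0.47 in the sterol steps, with -0.01 in the regulators and -0.04 in the fatty acid enzymes. RBPJ 2 stood at -1.19, -1.32, -0.91 and -0.82 in the same order. Read counts of the 2 libraries differed by 18.7 times the sampling variance (chi-square per degree of freedom), the highest of the 8 constructs. That ratio rises with depth, and the library labelled RBPJ 1 had the highest total (3090666 reads), so it does not rank the constructs evenly.

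With the library labelled RBPJ 1 left out, 14 of the 32 genes passed the limma test, all lower, against 1.58% of all genes lower and 0.315% higher. They were ACAT2, HMGCS1, IDI1, FDFT1, SQLE, LSS, MSMO1, DHCR7, INSIG1, SREBF1, FASN, SCD, FADS1 and FADS2. The largest of these changes were SCD (log2 -2.68, limma adjusted p = 0.00029), MSMO1, which removes methyl groups from sterols (log2 -2.32, limma adjusted p = 0.000121), and IDI1 (log2 -2.11, limma adjusted p = 0.000119). With RBPJ 2 left out, 0 of the 32 passed, as did 0% of all genes, and DHCR7 stood at log2 -0.93 (limma adjusted p = 0.391). Each of these fits rests on 1 library of the target, which was assumed to vary like the other groups. On the recovered reads, edgeR called 0 of the 32, where it called 0.00924% of all genes lower. DESeq2 called 5, all lower (ACAT2, IDI1, SQLE, NSDHL and DHCR7), where it called 0.259% of all genes lower.

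**Figure D3:**
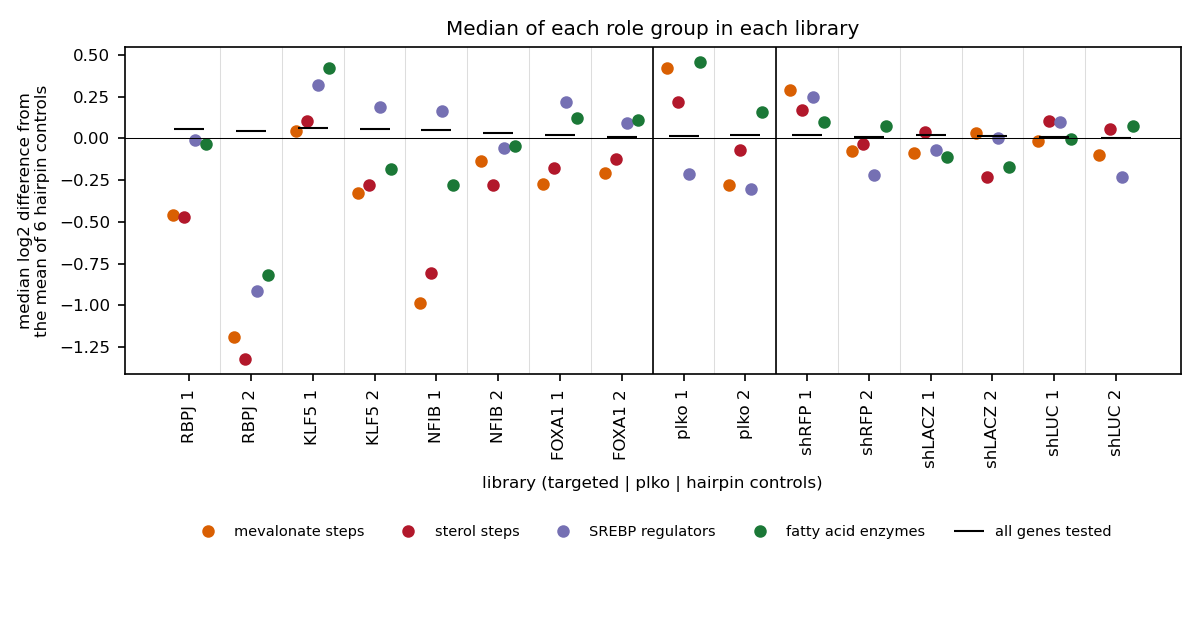
Median over each role group of the log2 difference of a library from the mean of the 6 hairpin controls (vertical axis), for each of 16 libraries (horizontal axis, targeted libraries left of plko and the hairpin controls), with the median of all genes tested as a black line. Mevalonate and sterol medians lie at -1.19 and -1.32 in RBPJ 2 and at -0.98 and -0.80 in NFIB 1, below the fatty acid medians of -0.82 and -0.28.

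The sterol and fatty acid arms were set side by side within each library. The median over the mevalonate and sterol genes minus that over the fatty acid enzymes was -0.42 in the library labelled RBPJ 1 and -0.41 in RBPJ 2, -0.38 and -0.11 in the KLF5, -0.57 and -0.18 in the NFIB and -0.34 and -0.24 in the FOXA1 libraries, on the log2 scale. It was -0.11 and -0.42 in the plko libraries, against -0.15 to 0.15 in the 6 hairpin controls. The RBPJ libraries thus shared the offset between the arms while differing in their levels, and plko 2 had as large an offset.

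With KLF5 hairpins the genes did not shift together. Of the 32, 13 were below 0, with a median log2 fold change of 0.03 against 0.05 over all genes, and 5 passed the limma test, 3 lower and 2 higher, against 6.61% of all genes lower and 4.42% higher. The 3 lower genes were ACAT2, FDPS and SREBF2, and the 2 higher ones FASN and FADS2. Most genes of each role group did not pass, so these calls are not read as a split between the arms. The group medians were -0.035 in the mevalonate steps, -0.183 in the sterol steps, 0.137 in the regulators and 0.087 in the fatty acid enzymes. Both KLF5 libraries lay below all 6 hairpin controls for 6 of the 32, against 13.4% of all genes, and above them for 3, against 14.3%. These counts lie near the shares of all genes.

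**Figure D4:**
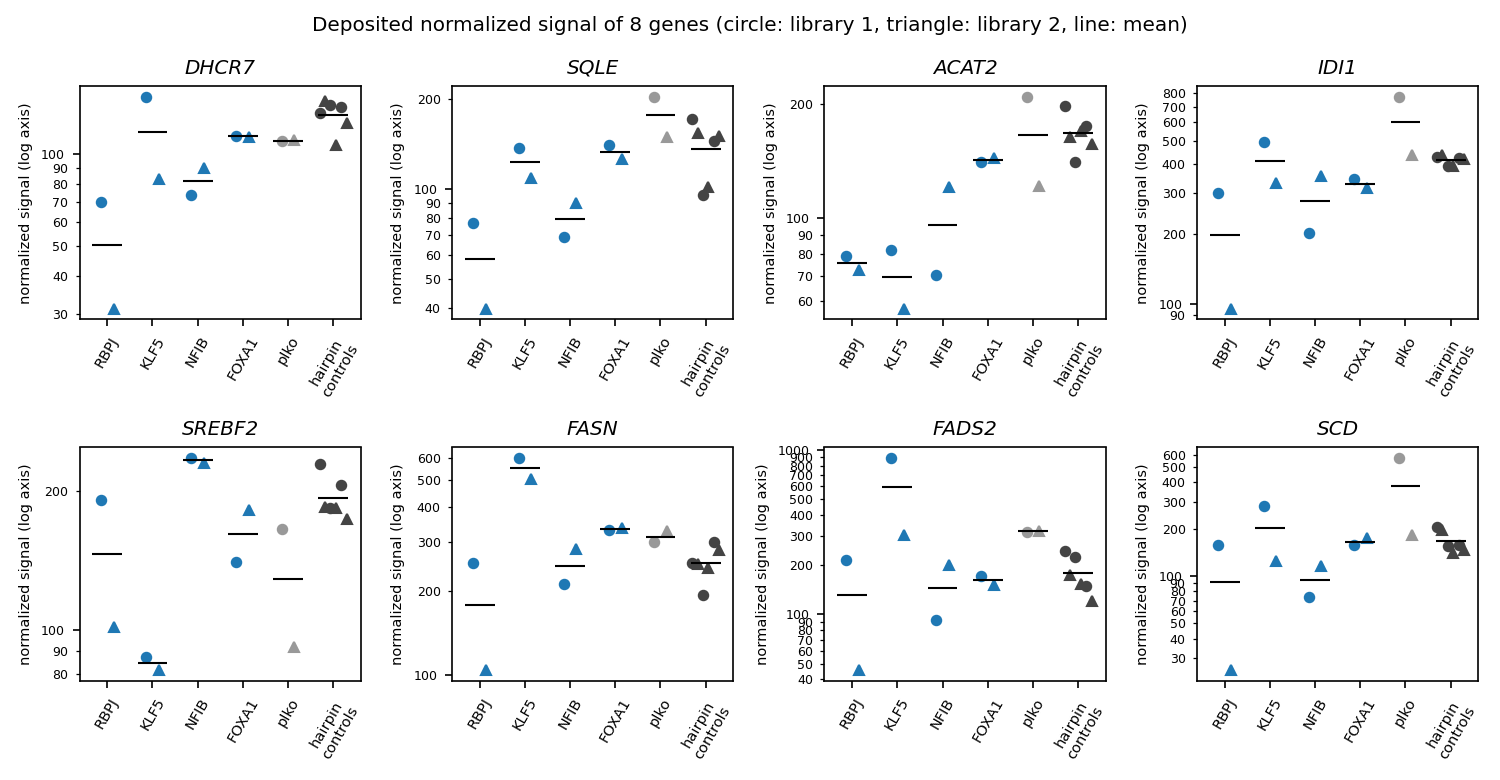
Deposited normalized signal (vertical axis, log scale) of 8 genes in each group, with library 1 as a circle, library 2 as a triangle and the mean as a line, and targets left of plko and the hairpin controls. ACAT2 lies at 79.1 and 72.5 in RBPJ and 81.8 and 57.2 in KLF5 libraries, below the hairpin controls, and FASN and FADS2 lie above them in KLF5 libraries.

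ACAT2 (ENSG00000120437) stood at 81.8 and 57.2 in the KLF5 libraries, against 141 to 198 in the hairpin controls, and fell with a log2 fold change of -1.27 (SE 0.22, limma adjusted p = 0.00055). On the other strand its exons overlap those of TCP1 by 397 bases, SOD2 by 1106 and SOD2-OT1 by 1309. The sources used here do not give the strand setting of the counting, so its reads are uncertain. SOD2 (ENSG00000285441) and SOD2-OT1 were not among the genes of the deposited table, so their levels could not be read. TCP1 itself stood at 159.9 and 181 in the KLF5 libraries, against 148 to 195 in the hairpin controls. SREBF2 (ENSG00000198911) stood at 87.4 and 81.7 in the KLF5 libraries, against 173.5, 184 and 228 in the hairpin controls, and fell with a log2 fold change of -1.17 (SE 0.23, limma adjusted p = 0.00121). FDPS, the farnesyl diphosphate synthase, stood at 249 and 157.5 in the KLF5 libraries, against 284, 352 and 453 in the hairpin controls, and fell with a log2 fold change of -0.84 (limma adjusted p = 0.0306). In all 3 genes both KLF5 libraries lay below every hairpin control.

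FASN (ENSG00000169710) stood at 601 and 505 in the KLF5 libraries, against 194, 251 and 301 in the hairpin controls, and rose with a log2 fold change of 1.13 (SE 0.23, limma adjusted p = 0.00246). FADS2 (ENSG00000134824), the desaturase that opens the polyunsaturated pathway, stood at 891.5 and 302 in the KLF5 libraries, against 120.4, 163 and 244 in the hairpin controls, and rose with a log2 fold change of 1.59 (SE 0.41, limma adjusted p = 0.012). Its partner FADS1, whose exons overlap those of FADS2, stood at 109 and 82.8 in the KLF5 libraries, against 61.2 to 121 in the hairpin controls (log2 0.04). NSDHL (log2 -0.58, limma adjusted p = 0.0963), EBP, the sterol isomerase (log2 -0.57, limma adjusted p = 0.126), and SREBF1 (log2 0.38, limma adjusted p = 0.461) did not pass. Against the same hairpin controls but without KLF5 1, the log2 fold change was 0.81 for FADS2 (limma adjusted p = 0.437) and 1.0 for FASN (limma adjusted p = 0.0859). Without KLF5 2 it was -0.52 for FDPS (limma adjusted p = 0.446).

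Set against the 2 plko libraries, with which the KLF5 libraries shared the low KRT8, 1 of the 32 genes passed, ACAT2, against 1.16% of all genes lower and 2.27% higher. Its log2 fold change was -1.21 (limma adjusted p = 0.0178), from 81.8 and 57.2 in KLF5 and 209.6 and 121 in plko libraries. SREBF2 stood at 165.5 and 91.7 in the plko libraries, FADS2 at 315.5 and 322 and FASN at 300.0 and 329. The KLF5 minus plko log2 differences were -0.54 for SREBF2 (limma adjusted p = 0.288), 0.70 for FADS2 (limma adjusted p = 0.467) and 0.81 for FASN (limma adjusted p = 0.115).

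The plko libraries were themselves set against the hairpin controls. PMVK, the phosphomevalonate kinase, fell (41.9 and 37.8 in plko libraries, against 58.0, 67.4 and 79.2 in the hairpin controls, log2 -0.76, limma adjusted p = 0.0318), as did SCAP (6.62 and 16.1, against 18.4, 22.0 and 31.0, log2 -1.04, limma adjusted p = 0.0424). They were 2 of the 32, against 5.63% of all genes lower and 1.88% higher. SCAP rested on 3 reads in plko 1, and its log2 value without that library was -0.46 (limma adjusted p = 0.748), while PMVK stood at -0.84 (limma adjusted p = 0.198) without plko 1 and -0.69 (limma adjusted p = 0.122) without plko 2. edgeR and DESeq2 on the recovered reads called 0 of the 32, and limma at an unadjusted p under 0.05 had 4 lower and 5 higher, against 13.9% of all genes lower and 9.07% higher.

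The 2 plko libraries differed in the pathway. SCD stood at 569 in plko 1 and 185 in plko 2, MSMO1 at 1952.5 and 1135, and IDI1 at 774 and 434, against up to 206, 1016 and 434 in the hairpin controls. Their log2 fold changes over the hairpin controls were 0.96 for SCD (limma adjusted p = 0.187), 0.67 for MSMO1 (limma adjusted p = 0.279) and 0.49 for IDI1 (limma adjusted p = 0.329), and none passed. SREBF2 (log2 -0.64, limma adjusted p = 0.0844), ACSS2, which makes acetyl-CoA from acetate (log2 0.77, limma adjusted p = 0.133), and NSDHL (log2 -0.35, limma adjusted p = 0.366) did not pass either.

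With NFIB hairpins 27 of the 32 genes were below 0, with a median log2 fold change of -0.33 against 0.04 over all genes, and 0 passed the limma test, where 0.00924% of all genes passed lower and 0% higher. At an unadjusted p under 0.05, 10 were lower and 0 higher, against 3.29% of all genes lower and 3.24% higher, and edgeR and DESeq2 called 0 of the 32. The medians were -0.52 in the mevalonate steps, -0.57 in the sterol steps, -0.08 in the regulators and -0.24 in the fatty acid enzymes. Both NFIB libraries lay below all 6 hairpin controls for 9 of the 32, against 4.47% of all genes, and 7 of these 9 were mevalonate or sterol genes.

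ACAT2 stood at 70.4 and 120.2 in the NFIB libraries, against 141 to 198 in the hairpin controls (log2 -0.85, limma adjusted p = 0.488). HMGCS1 stood at 23.9 and 48.1 in the NFIB libraries, against 46.5 to 91.8 in the hairpin controls (log2 -0.94, limma adjusted p = 0.612). SQLE stood at 69.0 and 89.4 in the NFIB libraries, against 95.7 to 171 in the hairpin controls (log2 -0.75, limma adjusted p = 0.612). In these 3 genes NFIB 1 was the lower library, and HMGCS1 overlapped the hairpin controls.

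DHCR7 stood at 73.8 and 90.3 in the NFIB libraries, against 107 to 149.7 in the hairpin controls (log2 -0.70, limma adjusted p = 0.657). Of the fatty acid enzymes, ELOVL6 stood at 6.15 and 4.22 in the NFIB libraries, against 9.86 to 12.6 in the hairpin controls (log2 -0.97, limma adjusted p = 0.698), and SCD at 73.8 and 116, against 140.3 to 206 (log2 -0.84, limma adjusted p = 0.776). SREBF2 was the gene of the 32 with both NFIB libraries above the hairpin controls, at 235 and 229.9, against 173.5 to 228 (log2 0.27, limma adjusted p = 0.853), beside 4.97% of all genes. SREBF1 had a log2 difference of -0.31 (limma adjusted p = 0.88).

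NFIB 1 carried most of the shift, with medians of -0.98 in the mevalonate steps and -0.80 in the sterol steps, against -0.13 and -0.28 in NFIB 2. NFIB 1 was below all 6 hairpin controls for 20 of the 32 genes, against 17.7% of all genes, among them all 7 mevalonate genes, and NFIB 2 for 10, against 14.1%. The NFIB transcript itself was lower in NFIB 2 (42.2) than in NFIB 1 (238).

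With FOXA1 hairpins 0 of the 32 genes passed the limma test, where 0.00924% of all genes passed lower and 0% higher, and edgeR and DESeq2 called 0. At an unadjusted p under 0.05, 0 were lower and 1 higher, against 4.74% of all genes lower and 2.22% higher. The medians were -0.21 in the mevalonate steps, -0.11 in the sterol steps and 0.06 in both the regulators and the fatty acid enzymes. Both FOXA1 libraries lay below all 6 hairpin controls for PMVK (52.0 and 57.1, log2 -0.32, limma adjusted p = 0.817) and IDI1 (342 and 314, log2 -0.33, limma adjusted p = 0.871), and above them for FASN (332 and 336.5, log2 0.41, limma adjusted p = 0.766) and ELOVL6 (14.5 and 15.0, log2 0.40, limma adjusted p = 0.887). The shares of all genes so placed were 5.83% below and 4.58% above. LSS, lanosterol synthase (log2 -0.46, limma adjusted p = 0.805), NSDHL (log2 -0.23, limma adjusted p = 0.887), SCAP (log2 0.38, limma adjusted p = 0.87), SREBF2 (log2 -0.27, limma adjusted p = 0.87) and ACLY, which cuts citrate to acetyl-CoA (log2 0.29, limma adjusted p = 0.822), did not pass.

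The targets were also set against each other. RBPJ minus KLF5 called 8 of the 32 genes, all lower, against 2.3% of all genes lower and 3.38% higher. They were 4 sterol genes (SQLE, LSS, MSMO1 and DHCR7), IDI1, SREBF1, FASN and FADS2. FADS2 had the largest difference, with 214 and 45.5 in the RBPJ libraries and 891.5 and 302 in the KLF5 libraries (log2 -2.38, SE 0.50, limma adjusted p = 0.00631). FASN stood at 252 and 104 in the RBPJ libraries and 601 and 505 in the KLF5 libraries (log2 -1.76, SE 0.29, limma adjusted p = 0.00113), and did so without overlap. MSMO1 stood at 869 and 188 in the RBPJ libraries and 1818 and 834 in the KLF5 libraries (log2 -1.60, limma adjusted p = 0.0331), and overlapped.

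ACAT2, FDPS, NSDHL and EBP lay below all 6 hairpin controls in both RBPJ and both KLF5 libraries. Of all genes, 4.03% did so with RBPJ and 13.4% with KLF5, and the share with both targets was not counted. ACAT2, NSDHL and EBP also lay below them in both NFIB libraries, and EBP in both plko libraries. Of all genes, 4.47% did so with NFIB and 1333 of 10826 with plko. The shares with several groups at once were not counted. All these groups were set against the same 6 hairpin controls, so the placements are not independent. The RBPJ minus KLF5 log2 difference was 0.15 for ACAT2 (95% interval -0.42 to 0.71, limma adjusted p = 0.849) and 0.23 for FDPS (95% interval -0.40 to 0.86, limma adjusted p = 0.766). It was -0.29 for NSDHL (95% interval -0.86 to 0.27, limma adjusted p = 0.636) and 0.01 for EBP (95% interval -0.59 to 0.61, limma adjusted p = 0.99). Without the library labelled RBPJ 1, RBPJ minus KLF5 called 14 of the 32, all lower, against 4.63% of all genes lower, and without KLF5 1 it called 1, lower, against 0.288%. RBPJ minus NFIB and RBPJ minus FOXA1 each called 0 of the 32, where 0% and 0.111% of all genes passed lower and 0% and 0.00924% higher, and edgeR and DESeq2 called 0 as well. At an unadjusted p under 0.05, RBPJ minus NFIB had 3 lower and 1 higher, against 1.25% of all genes lower and 0.794% higher, and RBPJ minus FOXA1 had 15 lower and 0 higher, against 3.76% lower and 3.88% higher. In RBPJ minus FOXA1, 31 of the 32 were below 0, with a median log2 difference of -0.67. Without the library labelled RBPJ 1, RBPJ minus NFIB called 6 of the 32, all lower, against 0.583% of all genes lower, and RBPJ minus FOXA1 called 12, all lower, against 1.33%.

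Other genes of the pathway, 37 of which were tested, were read beside these. With RBPJ hairpins 0 of the 37 passed the limma test, and their median log2 fold change was -0.26. At an unadjusted p under 0.05, 9 of the 37 were lower and 1 higher, against 3.92% of all genes lower and 2.1% higher. The 5 of them that are further sterol and isoprenoid steps had a median of -0.69, with 5 of 5 below 0 and 4 lower at that p. With NFIB and FOXA1 hairpins 0 passed. At an unadjusted p under 0.05, NFIB had 3 lower and 1 higher, against 3.29% of all genes lower and 3.24% higher. FOXA1 had 2 lower and 2 higher, against 4.74% and 2.22%.

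With KLF5 hairpins 2 of the 37 passed lower and 2 higher, against 6.61% of all genes lower and 4.42% higher. These counts lie near the shares of all genes. Among the genes of this list that passed with KLF5 hairpins, ERG28, a scaffold of sterol demethylation known from yeast, fell (71.8 and 75.8 in KLF5 libraries, against 158.5 to 223 in the hairpin controls, log2 -1.35, limma adjusted p = 0.000101). MBTPS1, the site-1 protease that cuts SREBP precursors, rose (168 and 188 in KLF5 libraries, against 81.0 to 110.2 in the hairpin controls, log2 0.90, limma adjusted p = 0.00449), as did MID1IP1, an activator of acetyl-CoA carboxylase (118 and 111, against 56.8 to 76.5, log2 0.85, limma adjusted p = 0.00484). With plko, 3 of the 37 passed lower and 1 higher, against 5.63% of all genes lower and 1.88% higher. Of these, ERG28 (log2 -0.74, limma adjusted p = 0.0262) and the elongase ELOVL1 (log2 -0.77, limma adjusted p = 0.0262) fell, and HSD17B12, a reductase of fatty acid elongation, rose (log2 0.61, limma adjusted p = 0.0449).

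Of the 32 genes, 3 had under 10 reads in the median library and are given by range over all 16 libraries. TM7SF2, a sterol reductase, ran from 2.63 to 23.6, HSD17B7, a sterol ketoreductase, from 0 to 13.2, and STARD4 from 2.95 to 17.0. None of these 3 passed a limma test in any of the 9 comparisons.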

How the data were processed

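The authors deposited 1 table of normalized signal, DESeq2-normalized per the file's name, for 11282 genes. The submitters' processing notes name GRCh37 as the genome. The aligner, counting tool, strand setting and use of molecular identifiers were not given in the labels or file header. RNA was profiled by a CEL-Seq-type 3′ method, per the labels' protocols, which say that samples were barcoded in batches and that some were run again; which ones is not given, so batch and construct cannot be told apart. Whole reads were recovered by dividing each deposited value by what 1 read is worth in its library (100% of values came within 0.05 of a whole number). The table held 2 columns of no sample described here, which were not used. Symbols were found for 11259 identifiers.

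limma 3.58.1 (R 4.3.3) with a mean-variance trend was fitted to log2(value + 1), which understates changes of low genes, over 16 libraries with a factor of 6 levels. The filter required a signal of 5 or more in 2 or more libraries, which kept 10826 genes and removed 456. Tests were two-sided, with Benjamini-Hochberg adjustment over all genes and a threshold of 0.05; the hairpin controls are shared by 5 of the 9 comparisons. Alternatives used other controls, pseudocounts and filters, TMM scaling, edgeR 4.0.16 and DESeq2 1.42.0 on the recovered reads, a replicate block and each library left out. One more, with the plko and KLF5 libraries left out, was added after seeing the data. The step was tested on simulated data. The p-values measure the spread between these libraries, which may be technical for controls and includes the difference between hairpins for targets. Totals limit precision, and counts cover counting error only.

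The genes and lists were chosen with earlier results of these data known. Named genes were those that passed, the 3 smallest p of each role group with RBPJ hairpins and the 2 smallest elsewhere, with other pathway genes that passed; some of these are not reported here. Genes under 10 reads in the median library are given by range.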

Additional observations from a re-analysis of the deposited data

Results flagged for a closer look

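In the 6 hairpin controls, MVD, the mevalonate decarboxylase, stood at 34.8 in shRFP 1, against 15.5 to 19.5 in the other 5, a gap that Dixon's test at the 95% level marks. It was the 1 of 32 genes so marked, and chance marks about 1 group in 20.

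RBPJ and KLF5 hairpins, set against each other in the limma fit, differed in 8 genes, all lower in RBPJ libraries. The log2 differences (RBPJ minus KLF5) were -1.25 for IDI1, -1.12 for SQLE, -1.34 for LSS, -1.60 for MSMO1, -1.26 for DHCR7, -1.27 for SREBF1, -1.76 for FASN and -2.38 for FADS2. Limma adjusted p-values ran from 0.00113 for FASN to 0.0386 for IDI1. Without KLF5 1 the count was 1, and without RBPJ 2 the differences were smaller in all 8.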

How the results depend on the processing

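Of 319 counts and medians recomputed under settings that left out no single library, 292 stayed near the reported value, which for a count means within 1.5 times of it and for a median a move under 1 SD of the group's median over the 6 hairpin controls. Of 7607 values of single genes, 62 lost the call, 74 gained one and 0 changed sign with a call. Most of these values belonged to genes without a call at the reported setting. DHCR7 with RBPJ hairpins passed in 26 of 28 settings (limma, edgeR or DESeq2 adjusted p 0.000119 to 0.391), missing under edgeR and without RBPJ 2. ACAT2 with KLF5 hairpins passed in 27 of 27 (adjusted p 3.04e-05 to 0.0469), and FASN in RBPJ minus KLF5 in 26 of 26. Other calls held in fewer settings. With plko, SCAP passed in 15 of 24 and PMVK in 17 of 24. In RBPJ minus KLF5, IDI1 passed in 17 of 26 and MSMO1 in 21 of 26, and with KLF5 hairpins FDPS passed in 21 of 27.

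With all 8 controls pooled, KLF5 called 3 genes and RBPJ minus KLF5 called 3, the KLF5 fatty acid median was -0.047 and the RBPJ regulator median -0.83. With plko as the only reference, KLF5 called 1, RBPJ 6 and NFIB 2. The medians there were -0.24 (mevalonate), -0.33 (regulators) and -0.23 (fatty acid) for KLF5, -0.76 (fatty acid) for RBPJ, -0.43 (fatty acid) for NFIB, and -0.25 (sterol), 0.33 (regulators) and -0.082 (fatty acid) for FOXA1. RBPJ called 2 with plko left out, 2 with plko and KLF5 left out (added after seeing the data), 3 with a pseudocount of 5, 0 with edgeR and 5 with DESeq2. The pseudocount of 5 gave a mevalonate median of -0.88 for RBPJ and 1 call for plko, while edgeR and DESeq2 gave plko 0. A filter at 20 gave a KLF5 mevalonate median of -0.33. Against the range of all 8 controls, 5 genes in place of 9 lay outside with both KLF5 libraries and 2 in place of 4 with both FOXA1 libraries. Of the 10826 genes tested, 754 lay below and 1008 above that range with both KLF5 libraries. With both FOXA1 libraries, 299 lay below it and 250 above. The cause of the changes between settings was not tested. Shares of all genes are not given beside the other counts of this section. Those counts alone do not show whether the pathway differed from other genes.

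Leaving out 1 library at a time, counts ran from 3 to 6 for KLF5, 0 to 14 for RBPJ, 0 to 5 for plko, 0 to 4 for KLF5 minus plko, 1 to 14 for RBPJ minus KLF5, 0 to 6 for RBPJ minus NFIB and 0 to 12 for RBPJ minus FOXA1. The KLF5 medians ran from -0.32 to 0.047 (mevalonate), -0.28 to 0.10 (sterol, above 0 without KLF5 2) and -0.18 to 0.42 (fatty acid). The RBPJ medians ran from -1.19 to -0.46 (mevalonate), -1.32 to -0.47 (sterol), -0.91 to -0.012 (regulators) and -0.82 to -0.036 (fatty acid). The NFIB medians ran from -0.98 to -0.13, -0.80 to -0.28, -0.13 to 0.16 and -0.29 to -0.043 in that order. The plko medians ran from -0.28 to 0.42 (mevalonate), -0.069 to 0.22 (sterol) and 0.16 to 0.46 (fatty acid).

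Replicate numbers showed no pairing common to all constructs, and these values cannot tell whether some constructs were paired. Deviations of same-numbered libraries correlated at -0.20 to 0.22 over 28 pairs of constructs (median 0.03), and 3 pairs passed 0.1. With a replicate block, KLF5 called 5, RBPJ 1, plko 2, KLF5 minus plko 1 and RBPJ minus KLF5 8.

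With 2 libraries a target, a gene at a few reads, such as SCAP in plko 1, rests on counting error, and a p above the threshold does not show equal levels.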
